A study of Huso dauricus with 9 samples.

Results

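The transcripts described here are those of ANGPTL4, PLIN2, ABCA1 and FADS2, 4 genes of lipid storage, lipid export and fatty acid desaturation, in the gut of kaluga sturgeon (Huso dauricus). They were picked out by their annotated gene name, and 15 of the 59331 assembled transcripts carry one of the names. ANGPTL4 has 1 transcript, PLIN2 has 2, ABCA1 has 11 and FADS2 has 1, and the transcript with the highest mean level stands as the lead of its gene. The genes were chosen with the difference between days in these same libraries already known, so their own values are given as a description and without a test.

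The libraries are poly(A) RNA-seq of intestine from fish set free in a river for stock enhancement. The Ori group holds 3 fish netted at day 0, D14FL another 3 at day 14 and D30FL another 3 at day 30. All had been marked with a fluorescent dye in the snout before release and were anesthetized with tricaine methane sulfonate (MS-222) at sampling. The labels give no strain, sex, age or batch, a day 7 group of the design text was not analysed here, and no fish was held out of the river to day 14 or 30, so days in the river, calendar date, food and a library batch cannot be told apart.

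In vertebrates, fatty acids reach tissues when lipoprotein lipase splits the triglyceride of circulating particles, and ANGPTL4 is a secreted protein that inactivates this lipase. Fatty acids that are not burned are stored as triglyceride in lipid droplets, whose surface PLIN2 coats in most cell types. ABCA1 moves cholesterol and phospholipid out of cells onto apolipoprotein A-I, and FADS2 is the front-end desaturase that begins the making of long polyunsaturated fatty acids from those of the diet. In mammals, PPAR nuclear receptors, which bind fatty acids, drive ANGPTL4 and PLIN2, and liver X receptors, which bind oxysterols, drive ABCA1.

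Levels are the authors' FPKM, a read density per transcript length. Fragments of the same annotated gene differ in level here, so a comparison between genes holds only for the transcripts named. The unit rests on the name the authors gave the values, since TPM over a filtered list would have similar sums. The read depth behind them is unknown. The summed FPKM per library ran from 810895 to 929953. Transcripts with at least 1 FPKM numbered 35812 to 41584 in Ori, 45145 to 48105 in D14FL and 42228 to 49503 in D30FL. Transcripts listed at 0 numbered 3929 to 6173, 1857 to 2882 and 2070 to 3558. Every river library thus had more transcripts at 1 FPKM and fewer at 0 than every Ori library, and the cause was not tested. A log2 change is on the log2(FPKM + 1) scale, which understates the change of low transcripts. It is given relative to the median of all 54200 tested transcripts, which itself lay 0.38 above Ori at day 14 and 0.37 above Ori at day 30. Of the intestinal enterocyte markers, 9 of 10 had a transcript, and their summed FPKM was 2319 to 6395 in Ori, 3181 to 3767 in D14FL and 1714 to 3916 in D30FL. In most libraries the larger share of that sum was FABP2, and without it the sums were 651.7 to 1703, 1564 to 1956 and 1185 to 1644. The ALPI transcript has an exonuclease as its best match and the APOA4 transcript has apolipoprotein A-I, so both names are uncertain. In tissue RNA, fewer cells of a type and less RNA per cell cannot be told apart.

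ANGPTL4 was low at day 0 and about an order of magnitude higher in the river fish. Its transcript, TRINITY_DN39660_c0_g1_i9_1, has the angiopoietin-related protein 4 of spotted gar as its best match, and 245 of 447 aligned residues were identical to the KEGG protein. It stood at 1.39, 1.55 and 1.21 FPKM in Ori 1, 2 and 3. The D14FL libraries held 16.4, 9.81 and 21.7 FPKM. In D30FL 1, 2 and 3 it was at 21.3, 27.2 and 7.76 FPKM. Every river library lay above every day 0 library, and the day 14 and day 30 ranges overlapped. Mean levels were 1.38 ± 0.168 (SD, n = 3) in Ori, 15.99 ± 5.98 in D14FL and 18.7 ± 9.95 in D30FL, 11.6 and 13.5 times the day 0 mean. On the log2 scale the change from Ori was 2.39 (SE 0.452) at day 14 and 2.52 (SE 0.452) at day 30. From day 14 to day 30 it was 0.13 (SE 0.452).

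PLIN2, the droplet coat, was the most abundant of the 4 leads in 5 of the 6 river libraries. Its lead, TRINITY_DN37473_c0_g1_i15_1, matches perilipin-2 of sterlet, another sturgeon, best, with 298 of 429 residues identical to the KEGG protein. The day 0 levels were 4.76, 7.98 and 9.10 FPKM in Ori 1, 2 and 3. At day 14 they were 23.9, 62.5 and 87.3 FPKM in D14FL 1, 2 and 3. At day 30 they were 112.7, 144.9 and 27.95 FPKM in D30FL 1, 2 and 3. No river library fell to the day 0 range, while D30FL 3 lay near D14FL 1 and well under the other D30FL fish. The means were 7.28 ± 2.25 (SD, n = 3), 57.9 ± 31.95 and 95.2 ± 60.4 FPKM, a ratio to day 0 of 7.95 at day 14 and 13.1 at day 30. The log2 changes from Ori were 2.30 (SE 0.603) at day 14 and 2.91 (SE 0.603) at day 30, and the latter was 3.54 without D30FL 3.

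A second PLIN2 transcript, TRINITY_DN25405_c0_g2_i2_3, is a fragment with 60 residues aligned to the KEGG protein, of which 40 were identical. It stood at 9.53 to 17.0 FPKM in Ori, 28.1 to 65.9 in D14FL and 34.0 to 94.4 in D30FL. It followed the lead in keeping all 6 river libraries above day 0, with smaller log2 changes of 1.46 at day 14 and 1.903 at day 30 (SE 0.453). Its level was 143.9 to 213.4% of the lead in Ori, 75.4 to 117.4% in D14FL and 65.2 to 121.8% in D30FL, so the 2 fragments of the same annotated gene did not give the same fold. A further transcript whose best protein match is perilipin-2 but which has no Swiss-Prot name, and so lies outside the choice by name, was 1.67 to 6.45 FPKM in Ori, 2.00 to 11.7 in D14FL and 9.40 to 19.6 in D30FL. That transcript overlapped with day 0 at day 14. A further 3 have the same best match and lie outside the choice. Of these, 2 carry the Swiss-Prot name of HAUS6, with log2 changes of -0.49 and -0.59 at day 14 and -0.50 and 0.02 at day 30, and the third, unnamed, was at most 1.13 FPKM and was not tested.

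**Figure D1:**
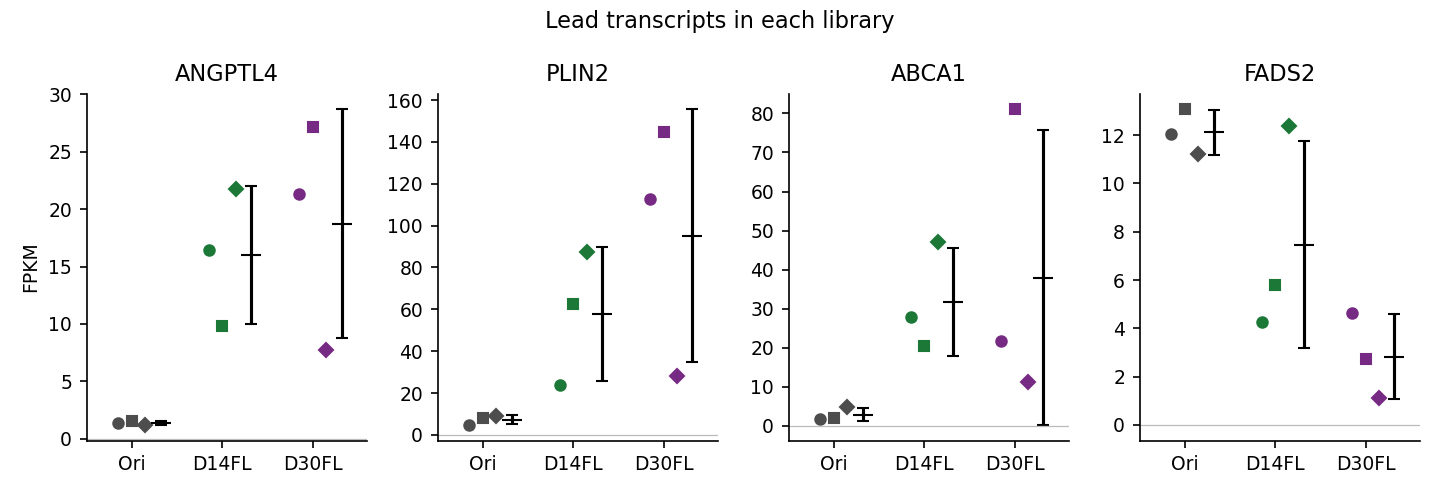
FPKM of the lead transcript of ANGPTL4, PLIN2, ABCA1 and FADS2 in each of the 9 libraries on linear axes; circles, squares and diamonds are libraries 1, 2 and 3 of a group, and the bar beside them is the mean ± SD (n = 3). ANGPTL4, PLIN2 and ABCA1 lie above every Ori library in all 6 river libraries, whereas FADS2 lies below every Ori library in the 3 D30FL libraries and in D14FL 1 and 2.

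Droplet fat is also the content of adipocytes, so adipocyte markers were read beside PLIN2. Of 8 such markers, 6 had a transcript, with a summed FPKM of 43.5 to 72.3 in Ori, 124.9 to 131.7 in D14FL and 101.5 to 243.3 in D30FL. Most of that sum was CEBPA, a transcription factor also used in liver and gut, at 36.4 to 63.8 FPKM in Ori and 93.7 to 223.1 FPKM in the river fish. Leptin (LEP) was listed at 0 in all Ori libraries and in D14FL 3 and reached at most 3.22 FPKM. CIDEC, LIPE and ADRB3, of droplet fusion, droplet lipolysis and adrenergic signalling, were lower in level and all lay above Ori without overlap at day 14. Of all tested transcripts, 27.8% did so at day 14 and 20.8% at day 30. CIDEC was at 2.13 to 3.79 FPKM in Ori and 8.31 to 11.4 in D14FL, LIPE at 2.56 to 4.24 and 5.51 to 7.47, and ADRB3 at 0.414 to 0.509 and 1.33 to 1.903. In D30FL, CIDEC (3.635 to 15.65 FPKM) and LIPE (2.901 to 6.415 FPKM) overlapped with Ori, and ADRB3 (0.5205 to 3.177 FPKM) lay just above it. PLIN1, the droplet coat of adipocytes, and ADIPOQ had no transcript matched by name. A transcript with the Swiss-Prot name of pyrin has perilipin-1 of a turtle as its best match, so its name is uncertain. It was at 17.1 to 26.7 FPKM in Ori and 10.7 to 24.8 FPKM in the river fish. FABP4 matched a mouse protein best and was listed at 0 in all Ori libraries and in D30FL 3. It was at 0.155 to 1.63 FPKM in D14FL, its highest level, and so also above Ori there. The part of these cells in the PLIN2 and ANGPTL4 levels was not tested.

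ABCA1 was the lead with the widest spread of the 4 at day 30. The lead, TRINITY_DN37495_c0_g1_i1_2, matches sterlet ABCA1 best, with 503 of 595 residues identical to the KEGG protein and Pfam ABC transporter domains. Day 0 levels were 1.73, 2.09 and 4.76 FPKM in Ori 1, 2 and 3. The day 14 fish held 27.8, 20.5 and 47.2 FPKM. The day 30 fish held 21.65, 81.05 and 11.2 FPKM, so D30FL 2 was 7.24 times D30FL 3. All 6 river libraries lay above day 0 and the days 14 and 30 overlapped. The means were 2.86 ± 1.66 (SD, n = 3), 31.8 ± 13.8 and 37.96 ± 37.7 FPKM, 11.1 and 13.3 times the day 0 mean. The log2 change from Ori was 2.70 (SE 0.609) at day 14 and 2.58 (SE 0.609) at day 30. Without D30FL 2 the day 30 change was 1.91.

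Among the other 10 ABCA1 transcripts, 4 had the same order of libraries as each other at the top, with D30FL 2 highest and D14FL 3 next, as in the lead. TRINITY_DN25779_c0_g1_i1_2 was the strongest of them. It stood at 0.236, 0.573 and 1.10 FPKM in Ori, at 9.09, 5.09 and 21.8 FPKM in D14FL and at 8.60, 60.8 and 1.75 FPKM in D30FL. TRINITY_DN42682_c0_g1_i2_1, the fragment with the longest alignment at 935 residues, was at 0.0190, 0.111 and 0.224 FPKM in Ori. In the later groups it was at 3.43, 1.48 and 8.99 FPKM (D14FL) and at 2.92, 35.8 and 0.613 FPKM (D30FL). These fragments did not keep a fixed ratio to the lead: that last one made up 1.10% of the lead in Ori 1 and 44.1% in D30FL 2. For the 4 fragments the log2 changes were 1.72 to 2.42 at day 14 and 2.09 to 2.51 at day 30.

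The remaining 6 ABCA1 transcripts were all at or below 2.63 FPKM in every library, and 2 of them did not pass the filter of 1 FPKM in 3 libraries. Those that passed had smaller log2 changes, of -0.20 to 0.63 at day 14 and -0.17 to 0.90 at day 30. Among these 6, the best protein match was ABCA7 of spotted gar for 3, so their assignment to ABCA1 is uncertain. A transcript outside the choice by name, TRINITY_DN25849_c0_g1_i2_1, has sterlet ABCA1 as its best match and no Swiss-Prot name. It stood at 1.39 to 10.35 FPKM in Ori, 18.5 to 36.9 in D14FL and 13.0 to 24.8 in D30FL. It too lay above day 0 in all river libraries, by 2.05 at day 14 and 1.56 at day 30 on the log2 scale, but D30FL 2 was its lowest river library.

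**Figure D2:**
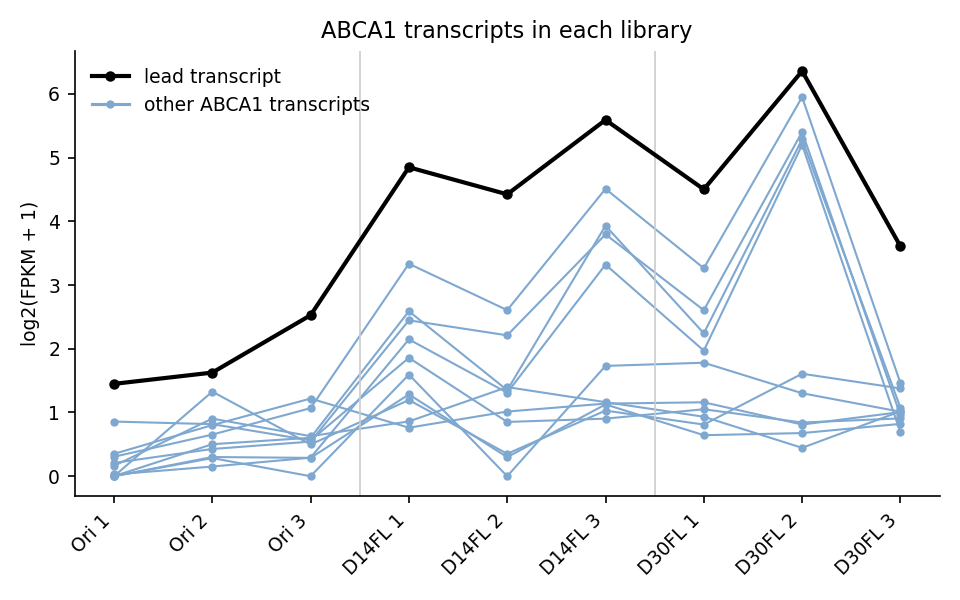
log2(FPKM + 1) of the 11 ABCA1 transcripts in the 9 libraries, with the lead in black and the other 10 in blue; vertical lines separate Ori, D14FL and D30FL. The lead and 4 others peak in D30FL 2 with a second peak in D14FL 3 and fall back in D30FL 3, while the other 6 stay low throughout.

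Macrophages, which depend on ABCA1 to shed cholesterol in mammals, were read beside it. Of 10 macrophage markers 9 had a transcript, with a summed FPKM of 82.3 to 228.7 in Ori, 271.8 to 345.6 in D14FL and 178.5 to 268.1 in D30FL. CD163 had no matched transcript, and ITGAM was listed at 0 in 1 library. The growth factor receptor CSF1R, named here after its values were seen, was at 1.53, 2.43 and 1.67 FPKM in Ori, at 5.21, 7.97 and 12.5 in D14FL and at 7.01, 18.5 and 3.51 in D30FL. Like ABCA1 it was highest in D30FL 2, second in D14FL 3 and, among the river fish, lowest in D30FL 3. ITGAM held the same places, at 9.39, 5.52 and 0.218 FPKM. CD68 held them among the river fish, at 51.7, 30.3 and 14.2 FPKM. The other macrophage markers with a transcript did not. These places are not particular to macrophage markers. The endothelial marker CDH5 held them too, at 7.91, 4.76 and 0.664 FPKM, and so did the ANGPTL4 lead, at 27.2, 21.7 and 7.76 FPKM. CDH5, of 7 endothelial markers with a transcript, was also picked after its values were seen. Other endothelial markers did not all hold these places, and VWF was highest in D30FL 3, at 14.1 FPKM. The mannose receptor MRC1, much of the summed level, did not follow ABCA1, with 150.1, 13.8 and 28.3 FPKM in Ori, 139.0, 171.0 and 122.0 in D14FL and 41.0, 26.2 and 49.98 in D30FL, where D30FL 2 was its lowest river library. The lysosomal protein CD68 was at 10.4 to 34.8 FPKM in Ori and 14.2 to 51.7 in the river fish, and the scavenger receptor MARCO at 0.522 to 2.22 and 0.578 to 1.96, both overlapping. MPEG1, a pore protein of macrophages, was at 7.85 to 12.3 FPKM in Ori and at 4.33 to 10.45 FPKM in the river fish, with no value above the Ori range. The complement genes C1QA, C1QB and C1QC were at 13.3 to 21.8 FPKM in Ori and at 19.3 to 61.6 FPKM in the river fish. The part of these cells in the ABCA1 levels was not tested.

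**Figure D3:**
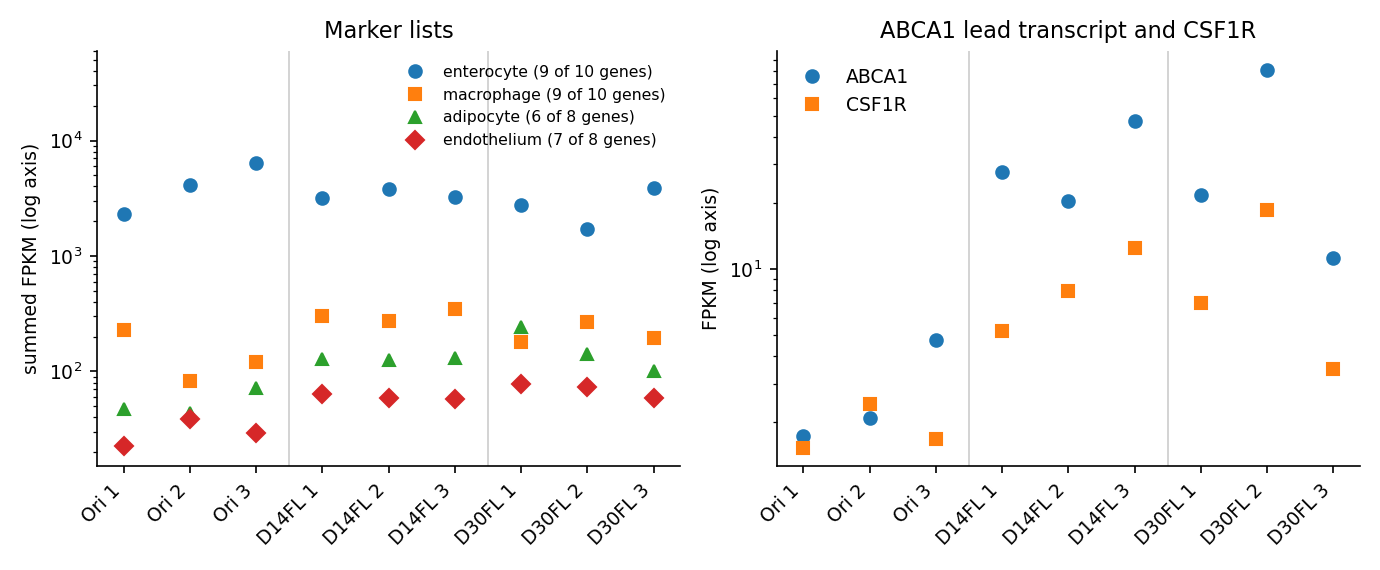
Left, the summed FPKM of 4 marker lists in the 9 libraries, on a log axis; right, FPKM of the ABCA1 lead transcript and of CSF1R, on a log axis. Macrophage, adipocyte and endothelial sums are mostly higher in the river fish and the enterocyte sum, in large part FABP2, is not, and ABCA1 and CSF1R are both highest in D30FL 2. CSF1R was picked after its values were seen. Of the other macrophage markers, ITGAM and CD68 were also highest in D30FL 2, while some, such as MRC1, did not follow ABCA1.

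FADS2 was the lead with lower levels in the river, lowest at day 30. Its transcript, TRINITY_DN34822_c0_g1_i1_1, matches fatty acid desaturase 2 of sterlet best, with 356 of 446 residues identical to the KEGG protein. At day 0 the 3 fish were close together at 12.0, 13.1 and 11.2 FPKM. At day 14, D14FL 1 and 2 had 4.25 and 5.79 FPKM and D14FL 3 had 12.4 FPKM, inside the day 0 range. At day 30 the levels were 4.63, 2.72 and 1.13 FPKM, all under day 0. The day 30 range touched that of day 14, since D30FL 1 lay above D14FL 1. Mean levels were 12.1 ± 0.924 (SD, n = 3) in Ori, 7.47 ± 4.30 in D14FL and 2.83 ± 1.75 in D30FL, ratios to day 0 of 0.617 and 0.233. Relative to all transcripts the log2 change was -1.13 (SE 0.444) at day 14, -2.26 (SE 0.444) at day 30 and -1.135 (SE 0.444) from day 14 to day 30.

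Counted over all 15 transcripts, 8 had D14FL values all above Ori and 0 had them all below. Of all tested transcripts, 27.8% were higher without overlap at day 14 and 6.7% lower. At day 30, 10 of the 15 were higher without overlap and FADS2 was lower, where 20.8% of all tested transcripts were higher and 6.14% lower. Only 13 of the 15 were tested, and the 10 include the untested ABCA1 transcript TRINITY_DN1833_c0_g1_i1_1. Between days 14 and 30 none of the 15 separated in either direction, against 3.83% higher and 4.46% lower of all tested transcripts. The choice of genes used the contrasts with day 0, so nothing is read from those counts.

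The order of the leads differed between the day 0 fish and the river fish. In each of the 3 Ori libraries FADS2 was highest, then PLIN2, ABCA1 and ANGPTL4. In each of the 6 river libraries FADS2 was lowest and ANGPTL4 next to lowest, and PLIN2 led in all but D14FL 1, where ABCA1 did. The day 0 order holds for the PLIN2 lead and not for its second transcript, which exceeded FADS2 in Ori 2 and Ori 3. The river order holds for the ABCA1 lead and not for all other ABCA1 transcripts. TRINITY_DN42682_c0_g1_i2_1 lay below FADS2 in every D14FL library (3.43, 1.48 and 8.99 FPKM). It also lay below FADS2 in D30FL 1 and D30FL 3 (2.92 and 0.613 FPKM). At day 14 the ranges of neighbours in that order overlapped throughout. At day 30 PLIN2 overlapped with ABCA1 and ABCA1 with ANGPTL4, while FADS2 lay below ANGPTL4 in every pair of fish. Within a library, which removes its scaling, the ratio of PLIN2 to FADS2 was 0.396 to 0.810 in Ori, 5.62 to 10.8 in D14FL and 24.3 to 53.3 in D30FL. The ratio of the ABCA1 lead to FADS2 was 0.144 to 0.424, then 3.53 to 6.53, then 4.67 to 29.8.

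**Figure D4:**
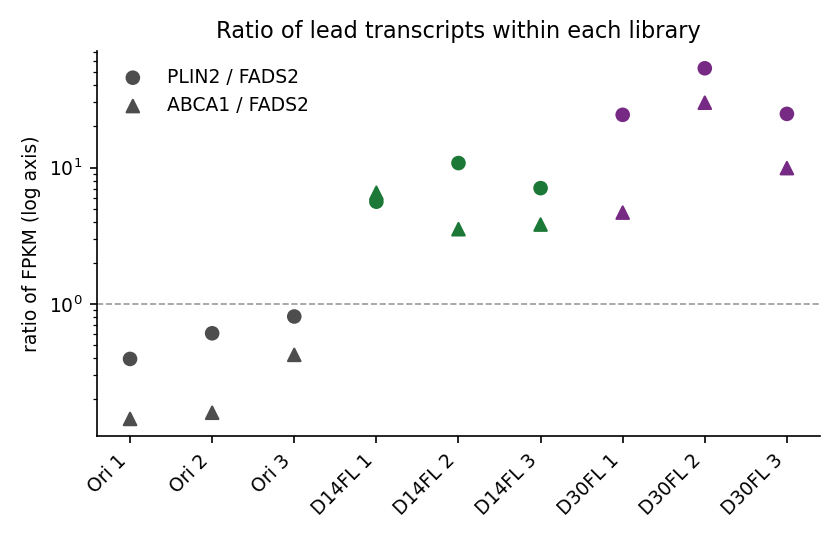
Ratio of the FPKM of the PLIN2 lead (circles) and of the ABCA1 lead (triangles) to that of FADS2 within each of the 9 libraries, on a log axis, with a dashed line at equal levels. Both ratios are under 1 in all Ori libraries and above 3 in all river libraries. PLIN2 to FADS2 is higher in each D30FL library than in any D14FL library. The second PLIN2 transcript and the other ABCA1 transcripts, some of which lay below FADS2 in river libraries, are not plotted.

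Set against all tested transcripts, the Ori mean of ANGPTL4 exceeded 32.3% of them, its D14FL mean 85.6% and its D30FL mean 87.7%. For PLIN2 these shares were 76.9%, 96.2% and 97.8%, and for ABCA1 53.9%, 92.8% and 94.05%. FADS2 went from 85.0% over 72.1% to 40.5%. The day 30 fish were not alike: D30FL 3 was lowest of its group in all 4 leads, and D30FL 2 was highest in ANGPTL4, PLIN2 and ABCA1. D14FL 3 was highest of its group in all 4, FADS2 included.

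The genes around the 4 were taken as 5 lists of 180 symbols in all, of which 135 had a transcript and 133 were tested with limma. The lists were written with earlier results of these data known, so the counts are a description. At day 14, 7 of the 133 rose and 0 fell at a Benjamini-Hochberg adjusted p under 0.05, which is 5.26% where 2.77% of all tested transcripts passed (2.17% higher, 0.6% lower). At day 30, 4 rose and 1 fell, 3.76% against 3.22% of all (2.49% higher, 0.732% lower). Between days 14 and 30 limma called 0 of them, and it called 0.00185% of all transcripts, a single one. Without adjustment, 8 of the 133 had a p under 0.05 between days 14 and 30, 50 at day 14 and 39 at day 30. Of all tested transcripts 3.84%, 23.1% and 24% did so, and the unadjusted counts given for each list stand beside these shares. The median log2 change of the 133 relative to all transcripts was 0.23 at day 14 and 0.11 at day 30. Each of the 133 is the transcript of highest mean for its symbol, while many tested transcripts are low. In Ori the PLIN2 lead, at a mean of 7.28 FPKM, exceeded 76.9% of them. The shares called were not compared at like levels, and the part of level in them was not tested. The p-values test the change as fitted, before the median of all transcripts is taken off, and each rests on 3 fish a group.

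**Figure D5:**
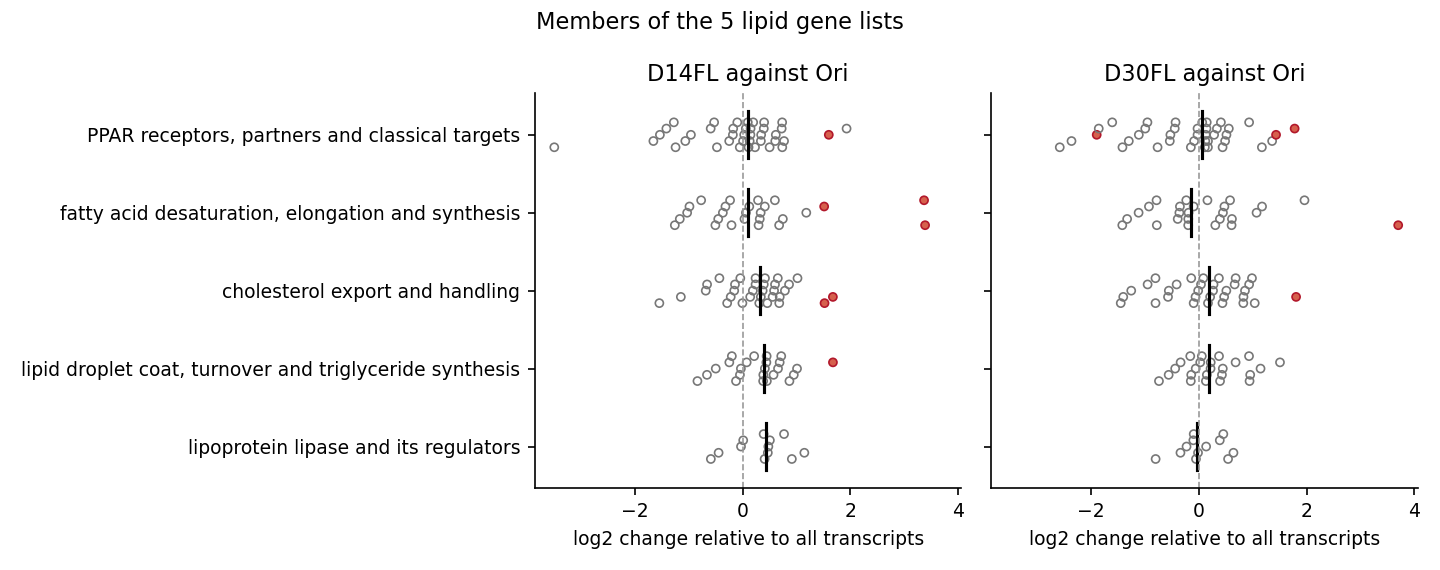
Log2 change relative to the median of all tested transcripts for each tested member of the 5 lipid gene lists, at day 14 (left) and day 30 (right) against Ori; filled red points passed an adjusted p under 0.05, open points did not, and black bars are list medians. The list medians lie between -0.15 and 0.44, and 7 of 133 members passed at day 14 and 5 of 133 at day 30.

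Lipoprotein lipase and its regulators, the setting of ANGPTL4, had 12 tested members, and none passed in either direction. At an unadjusted p under 0.05 there were 5 at day 14 and 1 at day 30. LPL, the lipase that ANGPTL4 inactivates, was at 5.17, 11.2 and 6.75 FPKM in Ori, 11.8, 18.2 and 11.3 in D14FL and 12.9, 9.31 and 6.89 in D30FL. The D14FL values lay just above the Ori range and the D30FL values overlapped with both groups. Its log2 changes of 0.41 and -0.06 had adjusted p = 0.224 and 0.614. With the transcripts of the symbol summed they were -0.05 and -0.30 (adjusted p = 0.525 and 0.904). CREB3L3, a transcription factor of lipid metabolism, had means of 21.3 and 37.1 FPKM in Ori and D14FL (log2 change 0.39, adjusted p = 0.186). APOC2, the activator of the lipase, went from a mean of 6.88 to 22.8 FPKM at day 14 (log2 change 1.14, adjusted p = 0.119). FURIN and PCSK5, proteases that cleave ANGPTL4 in mammals, had adjusted p = 0.133 and 0.113 at day 14 and 0.249 and 0.245 at day 30. The smallest adjusted p of the list at day 30 was 0.189, for PCSK6, and ANGPTL1 had 0.236.

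Of the lipid droplet and triglyceride synthesis genes around PLIN2, 24 were tested, 1 rose at day 14 and none passed at day 30, with 10 and 7 at an unadjusted p under 0.05. The one that rose was GPAT3, an acyltransferase of the first step of triglyceride synthesis. It stood at 28.4, 27.1 and 28.3 FPKM in Ori, at 101.8, 118.6 and 141.5 in D14FL and at 94.1, 138.3 and 41.7 in D30FL. All river libraries lay above day 0. The log2 change was 1.68 (SE 0.391, adjusted p = 0.0251) at day 14 and 1.14 (adjusted p = 0.056) at day 30. The day 14 call ended when any library of either group was left out (adjusted p 0.0664 to 0.0848) and with median-of-ratios scaling (0.0567).

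Other droplet genes did not pass. PNPLA2, the lipase that opens droplet triglyceride, was at 11.2, 13.9 and 13.8 FPKM in Ori, 25.2, 26.0 and 36.5 in D14FL and 9.75, 9.97 and 14.4 in D30FL. Its D14FL values lay above both other groups, with adjusted p = 0.0701 at day 14 and 0.716 at day 30. CIDEB and CIDEC, which fuse droplets or load them into lipoproteins, had adjusted p = 0.0717 and 0.11 at day 14. PLIN3, the perilipin closest to PLIN2 in use across tissues, was at 21.2 to 75.7 FPKM in Ori, 33.7 to 45.5 in D14FL and 35.1 to 57.3 in D30FL, and the groups overlapped (adjusted p = 0.721 and 0.971). At day 30 the smallest values after GPAT3 were 0.0621 for ACSL3, 0.0856 for AUP1 and 0.094 for RAB18.

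In cholesterol export and handling, the setting of ABCA1, 32 members were tested, 2 rose at day 14 and 1 at day 30, with 13 and 11 at an unadjusted p under 0.05. PLTP, which passes phospholipid between lipoproteins, was at 1.11, 0.995 and 0.783 FPKM in Ori. The D14FL libraries held 5.01, 6.77 and 7.42 FPKM of it and the D30FL libraries 8.12, 7.42 and 8.04. It rose at both days, by 1.52 (SE 0.325, adjusted p = 0.018) and 1.80 (SE 0.325, adjusted p = 0.0113). The day 30 call ended without D30FL 1 or Ori 3 (adjusted p 0.0624 and 0.0509), and the day 14 call without any D14FL library, Ori 2 or Ori 3 (0.0619 to 0.0727).

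MYLIP, a ubiquitin ligase that removes the LDL receptor and is a liver X receptor target in mammals, was at 2.38, 3.17 and 5.18 FPKM in Ori, 15.8, 14.3 and 23.4 in D14FL and 8.26, 12.0 and 7.68 in D30FL. It rose at day 14 by 1.67 (SE 0.354, adjusted p = 0.0185) and had adjusted p = 0.0803 at day 30. The day 14 call ended without any D14FL library, Ori 1 or Ori 2 (adjusted p 0.0532 to 0.0713). NR1H3, a liver X receptor, was at 3.72 to 3.91 FPKM in Ori, 8.14 to 10.9 in D14FL and 5.12 to 9.83 in D30FL, with adjusted p = 0.0977 and 0.197. APOE, a carrier of cholesterol in lipoproteins, had means of 150.0 and 406.9 FPKM in Ori and D14FL and adjusted p = 0.0682. CETP and CH25H had adjusted p = 0.0856 and 0.0877 at day 30. ABCG1, the partner of ABCA1 in sterol export, had no matched transcript.

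Fatty acid desaturation, elongation and synthesis, the setting of FADS2, had 26 tested members, of which 3 rose at day 14 and 1 at day 30, with 7 and 5 at an unadjusted p under 0.05. None fell. SCD, the desaturase that makes monounsaturated fatty acids and the other main desaturase beside FADS2, rose at both days. It was at 1.44, 3.62 and 8.75 FPKM in Ori, at 40.2, 28.4 and 229.5 in D14FL and at 78.7, 260.1 and 24.2 in D30FL. All river libraries were above day 0, and within each day they differed by about an order of magnitude. The log2 change was 3.39 (SE 0.888, adjusted p = 0.0471) at day 14 and 3.70 (SE 0.888, adjusted p = 0.0365) at day 30. The day 14 call ended without any Ori or D14FL library or D30FL 1 (adjusted p 0.0697 to 0.133) and with median-of-ratios scaling (0.0669). The day 30 call ended without any Ori library, D30FL 1, D30FL 2 or D14FL 1 (0.0539 to 0.122).

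ACSL4, a ligase that activates arachidonic acid and other polyunsaturated fatty acids, was at 1.48, 3.201 and 4.26 FPKM in Ori, 37.8, 91.0 and 36.4 in D14FL and 9.05, 54.9 and 11.4 in D30FL. It rose at day 14 by 3.37 (SE 0.61, adjusted p = 0.0151) and had adjusted p = 0.058 at day 30. The call ended without D14FL 1, D14FL 2, Ori 2 or Ori 3 (adjusted p 0.0504 to 0.0583). ELOVL5, which elongates the product of FADS2, was at 4.05, 3.85 and 9.70 FPKM in Ori, 19.0, 26.9 and 23.3 in D14FL and 8.78, 12.7 and 8.53 in D30FL, and at day 30 it overlapped with day 0. It rose at day 14 by 1.51 (SE 0.369, adjusted p = 0.0265), and its best match outside Swiss-Prot is a differently named membrane protein of a turtle, so its name is uncertain. That call ended without any D14FL library, Ori 1 or Ori 2 (0.0792 to 0.0923), with median-of-ratios scaling (0.0524) and with the transcripts of the symbol summed (log2 change 1.05, 0.0557). ACSL1, a ligase that activates long-chain fatty acids, had means of 17.9, 53.1 and 57.9 FPKM in Ori, D14FL and D30FL (adjusted p = 0.0788 and 0.075). HACD2, of the elongation cycle, had adjusted p = 0.19 at day 30.

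A further pair of enzymes that act after FADS2 on the same route were low or uneven. FADS1, the second front-end desaturase, was at 0.206, 2.20 and 2.22 FPKM in Ori, 0.236, 0.477 and 2.04 in D14FL and 0.228, 1.14 and 0 in D30FL, with adjusted p = 0.678 and 0.397. ELOVL2, the elongase of the last steps, was at 0.322, 10.7 and 18.55 FPKM in Ori and at 0.176 to 0.977 FPKM in the 6 river libraries. It did not pass the filter and was not tested, and Ori 1 lay among the river fish.

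Of PPAR receptors, their partners and their classical targets, 39 were tested. At day 14, 1 rose and 0 fell, and at day 30, 2 rose and 1 fell, with 15 at an unadjusted p under 0.05 at each day. The receptors themselves did not pass. PPARA was at 1.13 to 1.82 FPKM in Ori, 2.85 to 6.08 in D14FL and 1.99 to 4.78 in D30FL (adjusted p = 0.138 and 0.302). PPARG was at 18.5 to 23.3 FPKM in Ori, 28.5 to 40.6 in D14FL and 15.4 to 23.1 in D30FL (adjusted p = 0.17 and 0.759). PPARD was at 0.474 to 3.19 FPKM over the 9 libraries (adjusted p = 0.607 and 0.557).

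The mitochondrial carriers UCP3 and UCP2 were the targets that rose. UCP3 was at 2.20, 6.25 and 7.36 FPKM in Ori, 23.6, 32.4 and 13.6 in D14FL and 27.8, 25.8 and 20.9 in D30FL, and its best protein match is UCP1 of coelacanth. Its log2 change was 1.60 (SE 0.423, adjusted p = 0.0354) at day 14 and 1.78 (SE 0.423, adjusted p = 0.0276) at day 30. The day 14 call ended without any Ori or D14FL library or D30FL 1 (adjusted p 0.0551 to 0.115) or with median-of-ratios scaling (0.0645), and the day 30 call without any Ori library, D30FL 1 or D30FL 2 (0.0529 to 0.11). UCP2 was at 32.7, 41.2 and 41.0 FPKM in Ori, 73.8, 82.0 and 96.95 in D14FL and 93.8, 296.0 and 89.3 in D30FL. It rose at day 30 by 1.43 (SE 0.42, adjusted p = 0.0431), a call that ended without any library but D30FL 3 (0.052 to 0.129) and with median-of-ratios scaling (0.0899).

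ACAA1, the thiolase of peroxisomal fatty acid oxidation, was the list member that fell. It was at 31.4, 21.7 and 41.9 FPKM in Ori, 12.8, 12.1 and 14.85 in D14FL and 9.23, 7.48 and 14.2 in D30FL, below day 0 in every river library. The log2 change at day 30 was -1.898 (SE 0.339, adjusted p = 0.0382), and at day 14 it was -1.54 with adjusted p = 0.0853. With median-of-ratios scaling the day 14 fall passed in limma (adjusted p = 0.044). The day 30 call ended without any Ori library, D30FL 1, D30FL 2, D14FL 1 or D14FL 2 (0.0514 to 0.13). TXNIP and NCOR1 had adjusted p = 0.0807 and 0.0597 at day 14. NCOA1 was listed at 0 in all Ori libraries and had a mean of 2.07 FPKM at day 30 (adjusted p = 0.0706).

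The transcripts most like each lead over the 9 libraries were taken from 8677 named transcripts with a mean of at least 5 FPKM, by Pearson r of log2(FPKM + 1). The libraries share the split between day 0 and the river, so a high r is a description of that split as well. For ANGPTL4 they were midnolin (MIDN, r = 0.989), CEP72 (0.987) and the adiponectin receptor ADIPOR1 (0.9865). For PLIN2 they were UBXN4 (0.990) and UBE2G2 (0.987), of the degradation of proteins from the endoplasmic reticulum, and AMD1 (0.986), of polyamine synthesis. For ABCA1 they were plectin (PLEC, 0.993), the lysosomal transporter SLC46A3 (0.993) and GGNBP2 (0.991). FADS2 had no transcript as close, the nearest being the huntingtin-associated protein HAP40 (0.876), MATR3 (0.875) and SSUH2 (0.840).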

How the data were processed

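Poly(A) RNA-seq libraries of gut from 9 fish were compared, 3 each at days 0, 14 and 30. Per the submitters' processing notes, cutadapt 1.9 was used and the build mm10 is named with no role. Which programs assembled and quantified the reads, and how deep, is not given in the sources used here. FPKM values by the authors, per the file headers, were deposited for 59331 transcripts whose names have the form of a de novo assembly. They reach down to 3.63e-118, so reads were not recovered and there is no counting interval; a value of 0 is called listed at 0. With no genome used, transcripts have no coordinates, and near-identical gene copies may share reads.

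Members were matched to Swiss-Prot gene names, Swiss-Prot entry names or items of the KEGG gene name, ignoring case. ANGPTL4 matched only through an item of its KEGG name, its Swiss-Prot gene name being a synonym. The 54200 transcripts that reached 1 FPKM in 3 or more libraries were fitted with limma 3.58.1 (eBayes with trend, 6 residual degrees of freedom) on log2(FPKM + 1) over all 9 libraries, two-sided, with Benjamini-Hochberg adjustment over all 54200 and a threshold of 0.05. Changes are relative to the median of all tested transcripts. The fit was tested on simulated data in which few transcripts changed. It called 31% of transcripts changed by a log2 of 2 and 81% of those changed by 4, with 6 false calls. A transcript that did not pass may therefore still have changed. The simulated noise was independent between transcripts, and only transcripts with a mean log2(FPKM + 1) above 2 were changed. The 6 false calls therefore do not give the error rate of the real libraries. Each fish is 1 library. The p-values rest on the spread within groups over all 9 libraries, moderated across transcripts, so a contrast also draws on the fish of the third group.

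Members and lists were chosen with earlier results of these data known. For each symbol the transcript of highest mean stood for the gene, and 13 pairs of a symbol and a differently annotated transcript were left out on annotation alone. Of list members the text names those with the 4 smallest p in each list and contrast with day 0, and a fixed set of lipid genes (LPL, PPARA, PPARD, PPARG, NR1H3, ABCG1, FADS1, ELOVL5, ELOVL2, PLIN3, PNPLA2). For each lead it names the 3 most similar transcripts. Alternatives were a pseudocount of 0.1, no filter, a mean of at least 5 FPKM, median-of-ratios scaling, the replicate number as a block, summed transcripts of a symbol and each library left out.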

Additional observations from a re-analysis of the deposited data

How the results depend on the processing

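The log2 changes of the 4 leads against Ori kept their direction under every alternative run. With each library left out they ranged at day 14 from 2.15 to 2.66 for ANGPTL4, 1.92 to 2.86 for PLIN2, 2.39 to 2.95 for ABCA1 and -1.51 to -0.81 for FADS2. At day 30 the ranges were 2.27 to 2.94, 2.55 to 3.54, 1.91 to 3.11 and -2.58 to -1.97. The other settings moved them within 1.88 to 2.93 for the first 3 genes and -1.39 to -1.11 for FADS2 at day 14, and 2.42 to 2.97 and -2.78 to -2.22 at day 30. Counts of calls were less stable. With each library left out, 138 (D14FL 1 out) to 3763 (D30FL 2 out) transcripts were called at day 14 against 1501, and 98 (D30FL 1 out) to 6605 (D30FL 3 out) at day 30 against 1746. List members called ranged from 0 to 13 at day 14, where 7 were called, and from 0 to 22 at day 30, where 5 were. Median-of-ratios scaling lowered the day 14 list calls to 4, and a mean of at least 5 FPKM raised the day 30 list calls to 9. Under median-of-ratios scaling, 449 of 1117 called transcripts were higher at day 14, against 1176 of 1501, and 551 of 1286 at day 30, against 1349 of 1746. It also moved the median of all transcripts to 0.04 and 0.05, so directions near 0 depend on the scaling. The cause was not tested.

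Replicate numbers name different fish in each group. Deviations of same-numbered libraries correlated between -0.315 and 0.0843, and those of differently numbered libraries between -0.0913 and 0.277. Whether same-numbered libraries shared a batch was not tested. With the number as a block, 315 transcripts and 1 list member were called at day 14, and 357 transcripts and 1 list member at day 30. Since depth is unknown, the counting error of low levels could not be computed.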

Other observations

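The deposited table also assigns the leads to KEGG pathways, and the other transcripts of these pathways were read with the same limma fit. Those singled out below were chosen after their values were seen. The shares called in each pathway were likewise not compared at like levels. Fat digestion and absorption, which holds ABCA1, had 42 tested transcripts besides the members, and 5 rose at each of days 14 and 30 (11.9%, beside 2.77% and 3.22% of all tested transcripts), with none lower. Most were lipases of pancreas or their partners. Bile salt-activated lipase (CEL) was at 0.677 to 7.68 FPKM in Ori and 44.4 to 1132 FPKM in the river fish, with log2 changes of 5.14 (adjusted p = 0.0222) and 5.90 (adjusted p = 0.0144). Leaving out 4 libraries, one at a time, ended its day 14 call (D14FL 1 or any Ori library, 0.0536 to 0.0775) and leaving out 3 ended that of day 30 (D30FL 1, D30FL 2 or Ori 1, 0.0505 to 0.0733). Pancreatic lipase-related protein 2 was at 58.4 to 77.6 FPKM in Ori and 293.6 to 780.1 in the river fish. Its log2 changes were 2.23 (adjusted p = 0.00889) and 2.24 (adjusted p = 0.0095). No library left out ended its day 14 call, and only D30FL 1 ended that of day 30 (0.0587). Of 12 pancreatic acinar markers 6 had a transcript, with a summed FPKM of 17.2 to 61.4 in Ori, 111.1 to 6441 in D14FL and 773.6 to 3277 in D30FL. Among them the CPB1 transcript, at 1473 FPKM in D14FL 3, has glycogenin-1 as its best match and its name is uncertain. The part of the acinar markers in the pathway's count was not tested.

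A second DGAT2 transcript, of the last step of triglyceride synthesis, was also among the 5. It stood at 1.31, 4.49 and 5.83 FPKM in Ori, 20.1, 25.2 and 13.2 in D14FL and 14.2, 28.6 and 13.7 in D30FL, with every river library above day 0. The log2 changes were 1.78 (SE 0.458, adjusted p = 0.0348) and 1.71 (SE 0.458, adjusted p = 0.037). The day 14 call ended without any Ori or D14FL library or D30FL 1 (0.0522 to 0.112), and the day 30 call without any Ori library, D14FL 1, D30FL 1 or D30FL 2 (0.0592 to 0.114). The more abundant DGAT2 transcript, which stands for the gene in the lipid droplet list, was at 24.4 to 37.1 FPKM in Ori, 25.1 to 29.9 in D14FL and 17.9 to 26.4 in D30FL (adjusted p = 0.829 and 0.443). The 2 transcripts have different best matches, to DGAT2 of Chinese sturgeon for the one that rose and to a DGAT2-like protein of reedfish for the other.

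In the PPAR signaling pathway as deposited, which holds ANGPTL4, PLIN2 and FADS2, 4 of 89 other tested transcripts rose at day 14, and 3 rose and 1 fell at day 30 (4.49% at each day, beside 2.77% and 3.22% of all tested transcripts). Besides phosphoenolpyruvate carboxykinase they were PLTP, SCD and ACSL4 at day 14, and PLTP, SCD and ACAA1 at day 30. Those transcripts were already counted in the lists above, so the pathway counts are not independent of the list counts. Cytosolic phosphoenolpyruvate carboxykinase rose at both days, by 1.99 (adjusted p = 0.0438) and 3.58 (adjusted p = 0.00808). Its means were 0.691 FPKM in Ori, 7.70 in D14FL and 32.7 in D30FL. The day 14 call ended without any Ori or D14FL library or D30FL 1 (0.0522 to 0.121). No library left out ended its day 30 call. In cholesterol metabolism, which holds ANGPTL4 and ABCA1, 3 of 73 rose at day 14 (4.11%) and 2 at day 30 (2.74%). The 3 were PLTP and MYLIP, both already counted above, and a transcript named APOE whose best match is a mouse protein, so its origin is uncertain. That transcript was at most 0.230 FPKM in Ori and at 2.15 to 5.23 FPKM in D14FL. Among ABC transporters, 2 of 72 rose at day 14 (2.78%) and limma called 0 at day 30, with 16 at an unadjusted p under 0.05. In alpha-linolenic acid metabolism, which holds FADS2, 1 of 21 rose at day 14 (4.76%), and 1 rose and 1 fell at day 30 (9.52%). The one that rose is named as a secretory phospholipase A2 but matches a prolyl 4-hydroxylase best, so its name is uncertain. It is also among the 5 of fat digestion and absorption. Its day 14 call ended without any Ori or D14FL library or D30FL 1 (0.0647 to 0.124). The day 30 call ended without any Ori library, D30FL 1 or D30FL 2 (0.0508 to 0.107). For biosynthesis of unsaturated fatty acids, which also holds FADS2, 2 of 33 rose at day 14, ELOVL5 and SCD, and at day 30 SCD rose and ACAA1 fell (6.06% at each day). The medians of the last pathway were -0.19 and -0.22 relative to all transcripts.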
